A study of Mus musculus with 10 samples.

Results

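The genes described here are the fatty acid desaturases Fads1, Fads2 and Fads3, the elongases Elovl1, Elovl4, Elovl5, Elovl6 and Elovl7, and Hsd17b12 and Tecr, which complete the elongation cycle. They were taken by symbol, and 10 genes of the 40501 gene identifiers in the count table matched, each in 1 row. All 10 passed the filter on low counts. Inguinal fat, a subcutaneous white depot, was profiled by RNA-seq in 5 PexRAP-AKO libraries (replicates 1, 2, 3, 5 and 6) of Cre-positive mice with PexRAP deleted in adipose tissue, and in 5 Control libraries (replicates 2, 3, 5, 7 and 8) of Cre-negative mice. All were males on chow with a C57/BL6J background. The labels give an age of 8 weeks and also 8 weeks of chow, so the age at harvest is uncertain. The promoter that drives Cre is not given in the sources used here. PexRAP (ADHAPR) is the product of Dhrs7b and reduces acyl- and alkyl-dihydroxyacetone phosphate in the peroxisomal route to ether lipids.

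Long-chain acyl-CoA is lengthened at the endoplasmic reticulum in a cycle of condensation, reduction, dehydration and a closing reduction. An ELOVL protein condenses malonyl-CoA with the acyl chain and sets which chains are used, HSD17B12 carries out the reduction after it, HACD proteins dehydrate, and TECR closes the cycle. Front-end desaturases of the FADS family place a double bond between an existing one and the carboxyl end. With ELOVL5 they turn the dietary essential fatty acids into arachidonic and eicosapentaenoic acid. In fat, ELOVL6 works beside fatty acid synthase and turns newly made palmitate into stearate.

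The libraries held 11274865 to 16513769 counts in PexRAP-AKO and 11593437 to 19881168 counts in Control. Dhrs7b, the targeted gene, stood at 19.9 ± 2.26 CPM (counts scaled to library size with TMM factors) in PexRAP-AKO and at 82.4 ± 12.8 CPM in Control (SD, n = 5 each), with a log2 fold change of -2.05 (adjusted p = 1.54e-05, edgeR quasi-likelihood F test with Benjamini-Hochberg adjustment). White adipocyte markers were abundant in every library: 10 listed genes summed to 33040 to 43240 CPM in PexRAP-AKO and 34160 to 45590 CPM in Control. PexRAP-AKO replicate 6 stood apart in T cell, B cell and epithelial transcripts, with a T cell score (mean log2 CPM of the markers) of 3.63 against 0.58 to 1.38 in the other PexRAP-AKO libraries and 0.32 to 1.25 in Control. Its epithelial score was 3.89, and its B cell score was 4.54 against 1.20 to 2.30 in the other PexRAP-AKO libraries. Control replicate 8 had a B cell score of 3.76 against 0.85 to 1.58 in the other Control libraries, and the highest sum of skeletal muscle markers, 1453 CPM. Brown adipocyte transcripts varied widely within both groups, with scores of 4.71 to 5.99 in PexRAP-AKO and 3.94 to 5.72 in Control. In bulk tissue, fewer cells of a type and less RNA per cell cannot be told apart.

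None of the 10 genes passed the test over all genes (adjusted p under 0.05), which 15 of 14913 genes or 0.101% did, 0.0939% higher and 0.00671% lower. At an unadjusted p under 0.05, 5 of the 10 were higher in PexRAP-AKO and 0 lower. These were Tecr, Fads2, Fads1, Hsd17b12 and Elovl5. The same threshold took 9.01% of all genes higher and 6.44% lower. Of the 10, 9 had a positive log2 fold change, the exception being Fads3, and their median was 0.54, while 49.8% of all genes tested were positive with a median of -0.00065. The libraries of the groups did not overlap for 2 of the 10, Fads1 and Tecr, both higher in PexRAP-AKO, while 3.41% of all genes had no overlap, 2.08% higher and 1.33% lower. Together the 10 genes took 1192 to 1633 CPM in PexRAP-AKO libraries and 976.3 to 1224 CPM in Control libraries, ranges that overlap between PexRAP-AKO replicate 1 and Control replicate 3. DESeq2 gave 423 calls among 10436 genes (4.05%), and 5 of the 10 genes were among them, the same 5. With sample quality weights in limma voom, 0.717% of genes passed, and Tecr alone of the 10 (adjusted p = 0.0342). Without PexRAP-AKO replicate 1, edgeR called 58 of 15169 genes (0.382%), Fads2 and Tecr included (adjusted p = 0.0231 and 0.0233). With PexRAP-AKO replicate 6 and Control replicate 8 both left out, 5 of 14901 genes (0.0336%) were called, and none of the 10 was among them.

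**Figure D1:**
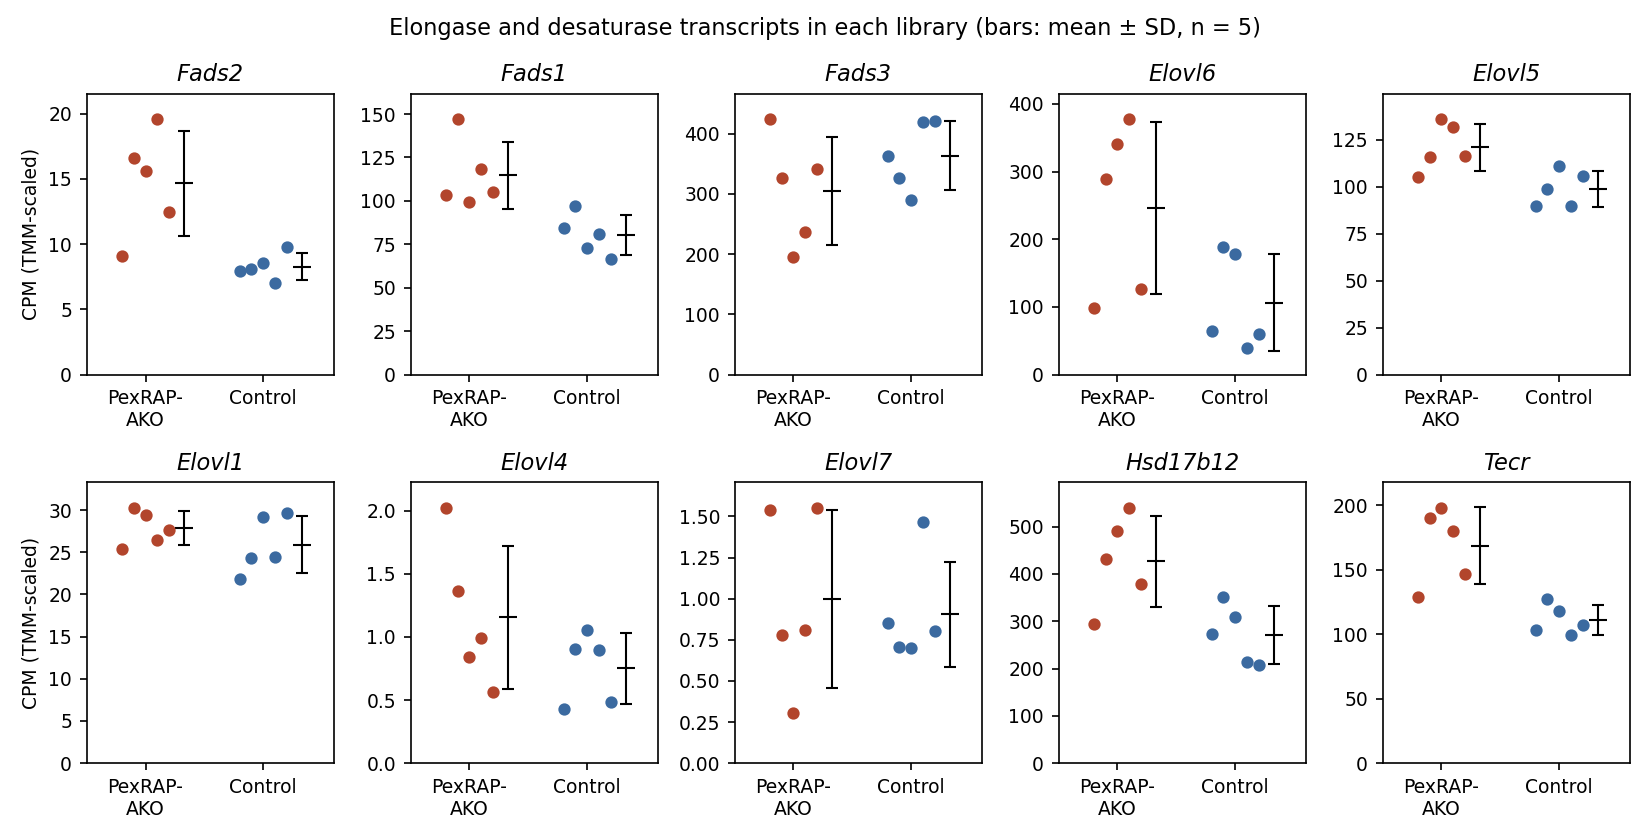
TMM-scaled CPM of the 10 genes (vertical axes, each from 0) in the 5 PexRAP-AKO and 5 Control libraries, 1 point per library, replicates in number order from left to right, with mean and SD as bars. Fads1 and Tecr show no overlap between the groups, Fads2, Elovl5 and Hsd17b12 each have 4 of 5 PexRAP-AKO libraries above all Control libraries, and Elovl6 spreads widely in both groups.

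Promoter sequences were read for the genes with an unadjusted p under 0.05, all of them higher in PexRAP-AKO, to show what lies at their starts. RefSeq (GRCm38.p6) gave promoters for 9 of the 10 genes, 10 promoters in all with a pair for Elovl1, each from 250 bases before to 50 bases after the start. Fads1 is not among them. The RefSeq starts used for Tecr, Fads2, Hsd17b12, Elovl6 and the downstream Elovl1 promoter lie inside the gene spans that GENCODE M21 gives. The whole windows of Tecr and of that Elovl1 promoter, and nearly all of the Fads2 window, are within those spans. These windows are therefore not simply sequence upstream of the annotated gene. Capitals mark the motifs found on either strand, which are CCAAT (the NF-Y box, ATTGG on the other strand), GGGCGG (the GC box, CCGCCC on the other strand) and CACGTG (an E-box).
Tecr, chr8:83594442-83594741, minus strand: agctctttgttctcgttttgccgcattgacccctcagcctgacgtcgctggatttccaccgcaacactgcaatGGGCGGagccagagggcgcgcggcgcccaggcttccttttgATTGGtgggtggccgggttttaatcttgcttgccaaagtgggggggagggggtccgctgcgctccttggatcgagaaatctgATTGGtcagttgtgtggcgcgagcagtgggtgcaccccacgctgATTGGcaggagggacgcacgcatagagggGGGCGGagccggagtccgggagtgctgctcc
Hsd17b12, chr2:94157860-94158159, minus strand: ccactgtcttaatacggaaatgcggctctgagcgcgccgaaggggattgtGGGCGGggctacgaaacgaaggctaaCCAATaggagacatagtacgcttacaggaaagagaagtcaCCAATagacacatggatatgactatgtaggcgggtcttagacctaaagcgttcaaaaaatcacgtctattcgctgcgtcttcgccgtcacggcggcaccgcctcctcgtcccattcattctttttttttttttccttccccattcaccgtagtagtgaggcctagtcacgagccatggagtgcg
Fads2, chr19:10101454-10101753, minus strand: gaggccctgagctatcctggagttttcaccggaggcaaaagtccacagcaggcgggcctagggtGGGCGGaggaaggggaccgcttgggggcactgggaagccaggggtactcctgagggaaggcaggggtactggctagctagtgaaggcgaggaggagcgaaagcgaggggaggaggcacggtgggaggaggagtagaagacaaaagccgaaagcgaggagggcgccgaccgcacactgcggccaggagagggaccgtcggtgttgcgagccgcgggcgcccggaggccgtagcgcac
Elovl5, chr9:77917115-77917414, plus strand: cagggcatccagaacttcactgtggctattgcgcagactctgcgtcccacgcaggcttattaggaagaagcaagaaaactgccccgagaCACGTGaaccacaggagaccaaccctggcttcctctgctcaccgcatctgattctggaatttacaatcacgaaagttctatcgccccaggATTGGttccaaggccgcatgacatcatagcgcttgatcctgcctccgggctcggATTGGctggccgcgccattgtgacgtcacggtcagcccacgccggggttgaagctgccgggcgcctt

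CCAAT was found in 6 of the 10 promoters, 3 times in Tecr, 2 times each in Hsd17b12, Elovl5 and Fads3, and 1 time each in Elovl1 and Elovl4, and in 37.4% of 32851 promoters of the same length. GGGCGG was found in 8 of the 10 and in 35.7% of all, and CACGTG in 2 of the 10, Elovl5 and Elovl4, and in 7.15% of all. TCACNCCAC, a form of the sterol regulatory element, was in 0 of the 10 and in 1.24% of all, and the DR4 element, a spaced repeat bound by LXR, was in 0 of the 10 and in 0.0152% of all. At shares this low, 0 matches in 10 promoters is the likely outcome, so the absence of both is not informative. The promoter of Elovl6, which had the largest log2 fold change, held none of the 5 motifs in this window. These are matches of letters, not measured binding sites.

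FADS2 is the desaturase that opens the polyunsaturated route, acting on linoleic and alpha-linolenic acid. Fads2 read 9.07, 16.6, 15.6, 19.6 and 12.5 CPM in PexRAP-AKO replicates 1, 2, 3, 5 and 6, against 7.91, 8.11, 8.59, 6.995 and 9.80 CPM in Control replicates 2, 3, 5, 7 and 8. PexRAP-AKO replicates 2, 3, 5 and 6 were above every Control library, while replicate 1 lay inside the Control range. The means were 14.7 ± 4.03 CPM in PexRAP-AKO and 8.28 ± 1.03 CPM in Control (SD, n = 5 each), and the log2 fold change was 0.82 (SE 0.18, 95% interval 0.43 to 1.22, edgeR adjusted p = 0.101). The spread was wider in PexRAP-AKO, with a coefficient of variation of 27.4% against 12.4% in Control.

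FADS1 acts after an elongation step and makes arachidonic and eicosapentaenoic acid. Fads1 read 103.5, 147.1, 99.15, 118.4 and 105.4 CPM in PexRAP-AKO replicates 1, 2, 3, 5 and 6, against 84.4, 96.9, 72.9, 81.0 and 66.6 CPM in Control replicates 2, 3, 5, 7 and 8. Every PexRAP-AKO library was above every Control library, with PexRAP-AKO replicate 3 only just above Control replicate 3. The means were 114.7 ± 19.5 CPM in PexRAP-AKO and 80.3 ± 11.6 CPM in Control (SD, n = 5 each), with a log2 fold change of 0.51 (SE 0.12, 95% interval 0.24 to 0.78, edgeR adjusted p = 0.125).

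FADS3 shares the family's fold but is known as a desaturase of sphingoid bases in ceramides. Fads3 read 424.0, 325.5, 195.3, 237.2 and 341.4 CPM in PexRAP-AKO replicates 1, 2, 3, 5 and 6, against 362.2, 326.7, 289.6, 419.1 and 420.1 CPM in Control replicates 2, 3, 5, 7 and 8. PexRAP-AKO replicates 3 and 5 lay below all Control libraries, and PexRAP-AKO replicate 1 lay above them all. The log2 fold change was -0.25 (SE 0.20, 95% interval -0.68 to 0.18, edgeR adjusted p = 0.572), so the direction is not resolved.

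The 3 desaturase genes lie close together on chromosome 19 (GENCODE M21, GRCm38). Fads3 spans 10041569 to 10060110 on the plus strand, Fads2 spans 10062765 to 10101746 on the minus strand, and Fads1 spans 10182888 to 10196877 on the plus strand. The ends of Fads3 and Fads2 are 2654 bases apart, and 81141 bases part Fads2 from Fads1, whose starts face each other. Levels of these neighbours differed within the same libraries. Per kilobase of exon, Fads3 averaged 80.4 CPM in PexRAP-AKO and 95.9 CPM in Control, Fads1 averaged 23.8 CPM in PexRAP-AKO and 16.7 CPM in Control, and Fads2 averaged 4.45 CPM in PexRAP-AKO and 2.51 CPM in Control.

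The other 7 genes are spread over 6 chromosomes in the same annotation, all protein-coding. Elovl6 spans chr3:129532355-129638495 and Elovl5 chr9:77917364-77984519, both on the plus strand, and Elovl4 lies on the same chromosome as Elovl5 at chr9:83778692-83806277 on the minus strand. Elovl1 spans chr4:118428093-118432953 and Elovl7 chr13:108214404-108285683, both on the plus strand. Hsd17b12 spans chr2:94032689-94157964 and Tecr chr8:83571698-83607971, both on the minus strand.

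Ratios between 2 genes within a library, which do not depend on scaling, compared the genes directly. The ratio of Fads3 to Fads1 counts was 4.09, 2.21, 1.97, 2.0 and 3.24 in PexRAP-AKO replicates 1, 2, 3, 5 and 6, against 4.29, 3.37, 3.97, 5.17 and 6.30 in Control replicates 2, 3, 5, 7 and 8. It was lower by 0.80 in log2 units in PexRAP-AKO (difference -0.80, exact two-sided permutation p = 0.0238, adjusted p = 0.0794 over 4 ratios), and 4 of 5 PexRAP-AKO libraries were below all Control libraries. The ratio of Fads2 to Fads1 was 0.0879 to 0.166 in PexRAP-AKO and 0.0839 to 0.148 in Control, a log2 difference of 0.27 (exact permutation p = 0.222, adjusted p = 0.222). Neither ratio passed after adjustment, and the smallest p that 5 against 5 libraries can give is 0.00794.

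**Figure D2:**
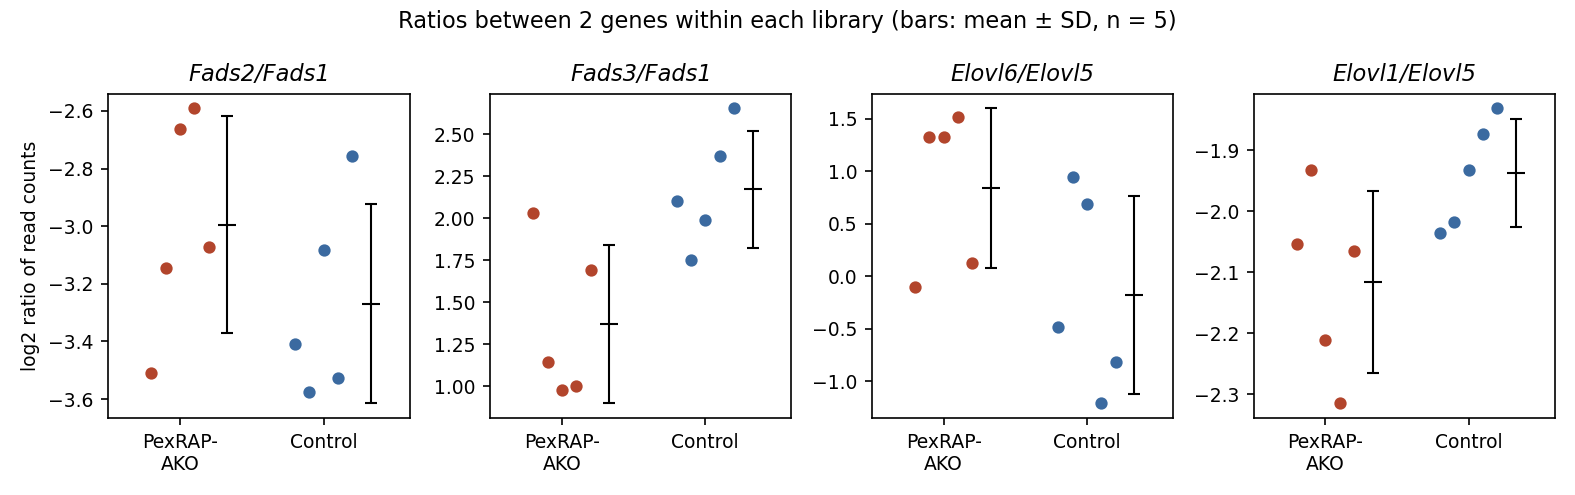
Log2 ratios of read counts between 2 of the genes within each library (vertical axes, not from 0), with PexRAP-AKO on the left and Control on the right, 1 point per library and bars for mean and SD. For Fads3/Fads1 and Elovl1/Elovl5, 4 of 5 PexRAP-AKO libraries lie below all 5 Control libraries.

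ELOVL6 lengthens palmitate and other saturated and monounsaturated chains of like length. Elovl6 read 98.4, 289.4, 341.4, 377.6 and 126.3 CPM in PexRAP-AKO replicates 1, 2, 3, 5 and 6, against 64.4, 189.0, 178.5, 38.7 and 59.9 CPM in Control replicates 2, 3, 5, 7 and 8. Replicates 2, 3 and 5 of PexRAP-AKO were above every Control library, but the other two PexRAP-AKO libraries were below Control replicates 3 and 5. It had the largest log2 fold change of the 10 genes, 1.21, and also the widest interval (SE 0.54, 95% interval -0.0086 to 2.43, edgeR adjusted p = 0.326). Elovl6 shares 34 exonic bases with Gm35986 on the opposite strand, where reads cannot be told apart without strand. Its coefficient of variation was 51.5% in PexRAP-AKO and 67.5% in Control.

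ELOVL5 lengthens the polyunsaturated chains between the steps of FADS2 and FADS1. Elovl5 read 105.5, 115.7, 136.1, 131.8 and 116.2 CPM in PexRAP-AKO replicates 1, 2, 3, 5 and 6, against 89.8, 98.7, 111.2, 89.6 and 105.6 CPM in Control replicates 2, 3, 5, 7 and 8. Of the PexRAP-AKO libraries, replicate 1 alone lay inside the Control range. The log2 fold change was 0.29 (SE 0.086, 95% interval 0.10 to 0.48, edgeR adjusted p = 0.175). The ratio of Elovl6 to Elovl5 counts was 0.932 to 2.86 in PexRAP-AKO and 0.432 to 1.92 in Control, a log2 difference of 1.01 that did not pass (1.015, exact permutation p = 0.111, adjusted p = 0.148).

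ELOVL1 makes saturated and monounsaturated very long chains used in sphingolipids. Elovl1 ranged from 25.4 to 30.3 CPM in PexRAP-AKO and from 21.9 to 29.7 CPM in Control, with a log2 fold change of 0.11 (95% interval -0.096 to 0.31, edgeR adjusted p = 0.622). It was the steadiest of the 10 genes in PexRAP-AKO, with a coefficient of variation of 7.19% there and 13.0% in Control. The ratio of Elovl1 to Elovl5 was 0.201 to 0.262 in PexRAP-AKO and 0.244 to 0.281 in Control, a log2 difference of -0.18 (exact permutation p = 0.0397, adjusted p = 0.0794). Elovl1 shares 53 exonic bases with Cdc20 on the opposite strand, and without stated strand their reads there cannot be told apart.

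ELOVL4 makes the ultra-long chains of skin, retina and brain, and ELOVL7 lengthens saturated long chains. Both genes were close to the limit of the filter. Elovl4 had 8 to 25 counts per library in PexRAP-AKO and 5 to 21 in Control, and Elovl7 had 4 to 22 in PexRAP-AKO and 10 to 18 in Control. Their log2 fold changes were 0.56 (95% interval -0.23 to 1.36) and 0.17 (95% interval -0.68 to 1.02), with edgeR adjusted p = 0.490 and 0.876. No difference was detectable at this depth for either gene, and the groups overlapped for both.

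HSD17B12 is the ketoacyl-CoA reductase that all ELOVL proteins share. Hsd17b12 read 293.7, 431.9, 490.4, 540.4 and 379.2 CPM in PexRAP-AKO replicates 1, 2, 3, 5 and 6, against 272.4, 351.9, 308.3, 214.6 and 207.8 CPM in Control replicates 2, 3, 5, 7 and 8. All but PexRAP-AKO replicate 1 were above every Control library. The log2 fold change was 0.66 (SE 0.19, 95% interval 0.25 to 1.06, edgeR adjusted p = 0.169).

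TECR is the enoyl-CoA reductase that ends each round of elongation and also serves sphingosine breakdown. Tecr read 128.9, 190.1, 198.2, 180.0 and 146.7 CPM in PexRAP-AKO replicates 1, 2, 3, 5 and 6, against 103.4, 127.2, 117.7, 99.4 and 107.1 CPM in Control replicates 2, 3, 5, 7 and 8. The groups did not overlap, with PexRAP-AKO replicate 1 just above Control replicate 3. The means were 168.8 ± 29.7 CPM in PexRAP-AKO and 111.0 ± 11.4 CPM in Control (SD, n = 5 each). With a log2 fold change of 0.60 (SE 0.12, 95% interval 0.34 to 0.86), Tecr had the lowest p of the 10 genes and rank 50 of the 14913 genes tested, but its edgeR adjusted p was 0.0838. It passed at an adjusted p under 0.1, as 0.543% of all genes did on the higher side.

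**Figure D3:**
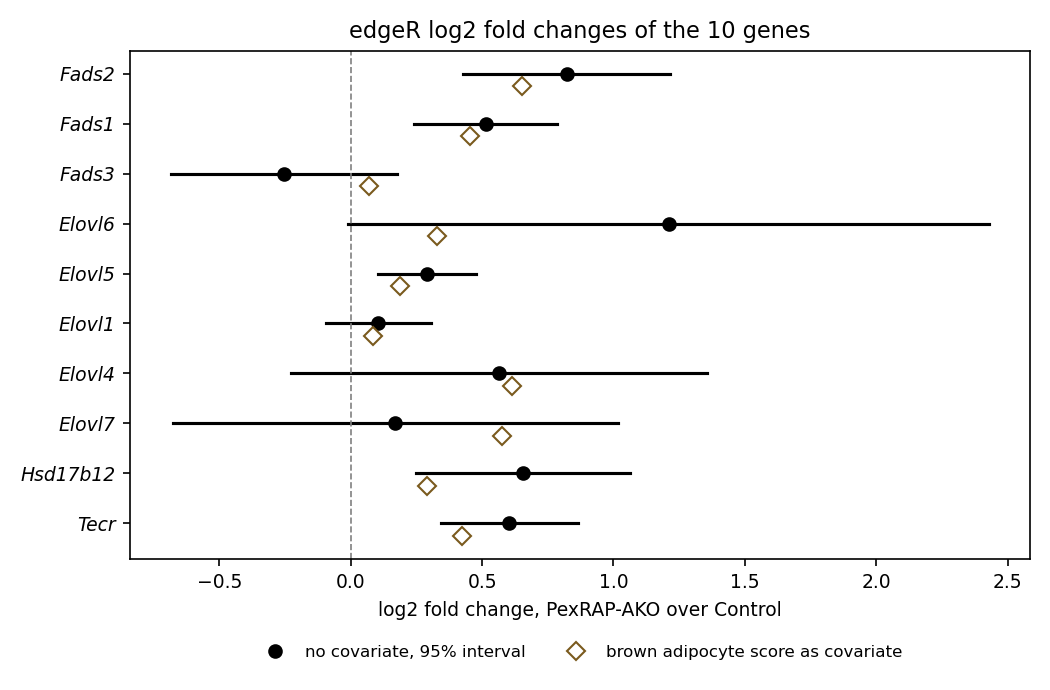
Log2 fold changes of the 10 genes, PexRAP-AKO over Control (horizontal axis), from edgeR with 95% intervals (filled points and lines) and from the fit that adds the brown adipocyte score (open diamonds, no interval drawn). The intervals of Fads1, Fads2, Elovl5, Hsd17b12 and Tecr lie above 0. The diamonds of Elovl6 and Hsd17b12 stand furthest to the left of their points. That of Elovl7 stands furthest to the right, and that of Fads3 is on the other side of 0.

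Per kilobase of exon, the shared reductase Hsd17b12 had the highest level of the 10 genes, at 177.4 ± 39.9 CPM in PexRAP-AKO and 112.6 ± 25.5 CPM in Control (SD, n = 5 each). In PexRAP-AKO it was followed by Fads3 (80.4), Tecr (77.0), Elovl6 (38.4), Elovl5 (34.4), Fads1 (23.8), Elovl1 (10.2) and Fads2 (4.45 CPM per kilobase). Elovl4 and Elovl7 were each under 1. Ranges of neighbours in that order overlapped for Fads3 and Tecr, Elovl6 and Elovl5, Elovl5 and Fads1, and Elovl4 and Elovl7. In Control, Fads3 (95.9) was followed by Tecr (50.6), Elovl5 (28.1), Fads1 (16.7), Elovl6 (16.5), Elovl1 (9.50) and Fads2 (2.51 CPM per kilobase). There the ranges overlapped for Hsd17b12 and Fads3, Fads1 and Elovl6, Elovl6 and Elovl1, and Elovl4 and Elovl7. Elovl6 thus stood in position 4 in PexRAP-AKO and in position 6 in Control. Its range in PexRAP-AKO lay just below that of Tecr and overlapped those of Fads3, Elovl5 and Fads1. In Control its range overlapped those of Elovl5, Fads1 and Elovl1. The change of position was therefore not resolved.

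Markers of other cell types varied between the same libraries. In PexRAP-AKO, Elovl6, Hsd17b12 and Tecr were highest in replicates 2, 3 and 5, and in Control in replicates 3 and 5. Brown adipocyte scores were 4.71, 5.52, 5.99, 5.89 and 5.51 in PexRAP-AKO replicates 1, 2, 3, 5 and 6, against 4.91, 5.12, 5.72, 4.34 and 3.94 in Control replicates 2, 3, 5, 7 and 8. Fads3 ran the other way: its 3 lowest libraries, PexRAP-AKO replicates 3 and 5 and Control replicate 5, were the 3 with the highest brown scores. The summed level of the 15 brown markers was 987.3 to 3196 CPM in PexRAP-AKO and 474.1 to 2549 CPM in Control, and Ucp1, the uncoupling protein of brown and beige fat, was at 94.2 to 1603 CPM in PexRAP-AKO and 28.6 to 1159 CPM in Control. Of the 14 tested markers 12 had a positive log2 fold change, 0 passed over all genes, and Zic1 was under 1 CPM throughout.

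In a fit that adds the brown score, the log2 fold changes of Elovl6, Hsd17b12 and Fads3 were 0.33 (SE 0.41), 0.29 (SE 0.12) and 0.07 (SE 0.13). Those of Fads1 (0.46, SE 0.15), Fads2 (0.65, SE 0.22), Tecr (0.42, SE 0.11), Elovl5 (0.19, SE 0.090), Elovl1 (0.08, SE 0.11) and Elovl4 (0.62, SE 0.41) were positive as well. Elovl7 moved up, from 0.17 to 0.58 (SE 0.40). None of the 10 genes passed (edgeR adjusted p = 0.439 to 0.920). The range of the score was higher in PexRAP-AKO (4.71 to 5.99 against 3.94 to 5.72), so the fit does not fully separate group from score. That fit called 3 genes in all. Endothelial markers had negative log2 fold changes in 8 of 8 tested genes, 0 of them past the threshold over all genes, and summed levels of 577.8 to 810.4 CPM in PexRAP-AKO and 794.2 to 989.1 CPM in Control. Skeletal muscle markers, at 19.7 to 149.2 CPM in PexRAP-AKO and 27.2 to 1453 CPM in Control, were all negative as well (14 of 14 tested, 0 past the threshold). None of the 10 genes passed in a fit that adds the skeletal muscle score, as none did without it. With that score the log2 fold changes of Fads1, Elovl6, Elovl4, Hsd17b12 and Tecr were lower, at 0.38, 1.00, 0.41, 0.58 and 0.54. Those of the other genes were slightly higher, Fads2 at 0.83 and Elovl5 at 0.32 among them. The part of the endothelial difference in these results was not tested.

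**Figure D4:**
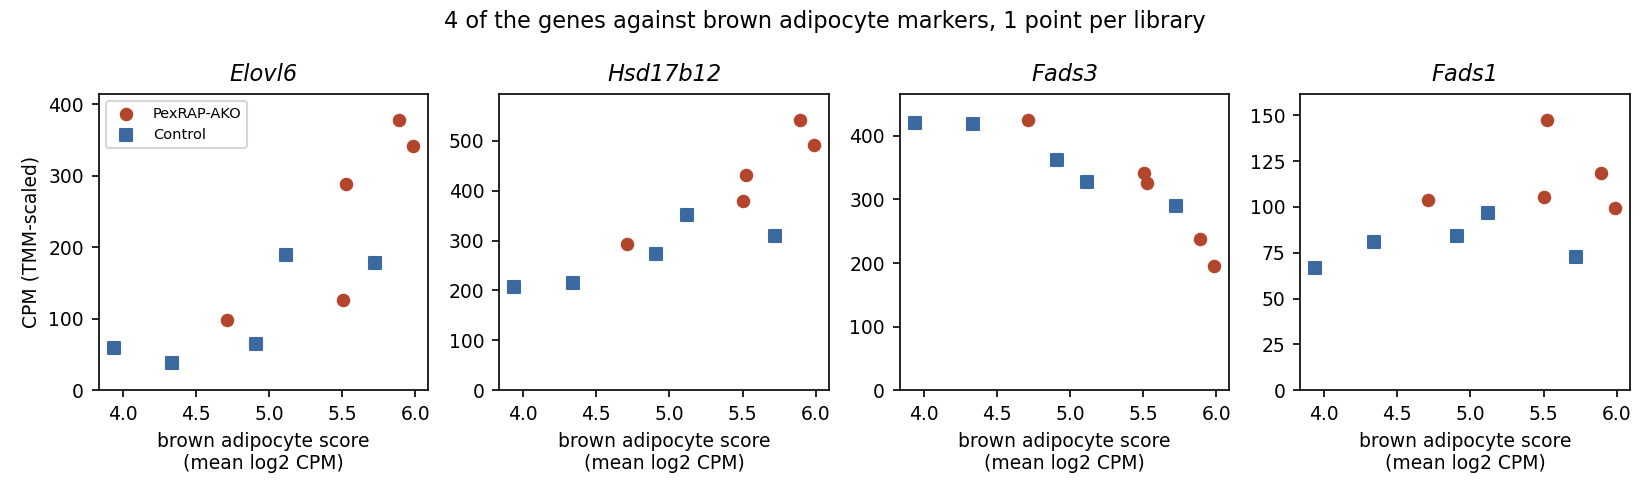
TMM-scaled CPM of Elovl6, Hsd17b12, Fads3 and Fads1 (vertical axes, from 0) against the brown adipocyte score of the same library (horizontal axis, mean log2 CPM of 14 markers), 1 point per library, circles for PexRAP-AKO and squares for Control. Elovl6 and Hsd17b12 are high and Fads3 is low in the libraries with the highest scores, while for Fads1 the 5 PexRAP-AKO libraries lie above the 5 Control libraries.

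The profile of Elovl6 over the 10 libraries was closest to those of the lipogenic enzymes Fasn, Acly and Acss2, which make palmitate, its acetyl-CoA precursor and acetyl-CoA from acetate. After each profile was centred on its own mean, they differed from Elovl6 by a root mean square of 0.364, 0.366 and 0.404 in log2 CPM, against a median of 1.09 over 12985 genes compared. Their own log2 fold changes were 0.89, 1.32 and 1.63 (edgeR adjusted p = 0.293, 0.301 and 0.107). Fads1 was closest to Lrrc39, Nol3 and Gsta4 (0.104 to 0.113), Fads2 to Tuba4a, Apoc1 and Ppp2r5b (0.165 to 0.182), and Elovl5 to Yrdc, Nkiras2 and Ube2f (0.0635 to 0.0727). These genes vary less than Elovl6, and their medians over the genes compared were lower too. They were 0.368 for Fads1, 0.514 for Fads2 and 0.259 for Elovl5. The 10 libraries share their depth and tissue makeup across genes, and likeness of profile says nothing of shared control.

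Of 19 other genes of elongation and desaturation, 17 were tested, and 0 passed over all genes in either direction. At an unadjusted p under 0.05, 7 were higher and 0 lower, against 9.01% and 6.44% of all genes. The median log2 fold change of the 17 was 0.17. The 4 with the lowest p were Scd1, Scd2 and Scd3, stearoyl-CoA desaturases, and Cyb5b, an outer mitochondrial membrane cytochrome b5. Cyb5b was at 669.6 to 951 CPM in PexRAP-AKO, against 431.9 to 634.4 CPM in Control, with a log2 fold change of 0.65 (edgeR adjusted p = 0.0866). Scd2 had a log2 fold change of 2.08, Scd3 of 0.95 and Scd1 of 0.77 (edgeR adjusted p = 0.0838, 0.112 and 0.0733), and Scd3, near 1 CPM beside the very abundant Scd1, is uncertain because reads of close copies can be split.

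The dehydratases of the cycle stood near 0, with log2 fold changes of 0.03 for Hacd1, 0.05 for Hacd2, 0.08 for Hacd3 and 0.07 for Hacd4. Cyb5a, the microsomal cytochrome b5 that donates electrons to desaturases, was at 0.01. Cyb5r3, the reductase that recharges cytochrome b5, was at 0.25 (SE 0.067, edgeR adjusted p = 0.149). Its groups did not overlap, and neither did those of Scd1, Scd2, Scd3 and Cyb5b. These are 5 of the 17 tested genes of that list, while 3.41% of all genes had no overlap. Elovl3, the elongase of brown fat and skin, read 5.75, 29.7, 97.5, 85.9 and 35.2 CPM in PexRAP-AKO replicates 1, 2, 3, 5 and 6, against 10.6, 21.2, 45.2, 0.895 and 1.13 CPM in Control replicates 2, 3, 5, 7 and 8 (log2 fold change 1.63, SE 0.97, edgeR adjusted p = 0.462). Its groups overlapped widely. The Hacd genes, Cyb5a, Cyb5r3 and Elovl3 were chosen for naming after their values were seen.

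Of 12 transcription and processing factors known to act on these genes, 0 passed over all genes. At an unadjusted p under 0.05, 4 were higher and 2 lower, against 9.01% and 6.44% of all genes. The median log2 fold change of the 12 was -0.0042. Srebf1, the sterol-regulated activator of fatty acid synthesis genes, was at 675.3 ± 73.3 CPM in PexRAP-AKO and 547.5 ± 42.0 CPM in Control (SD, n = 5 each, log2 fold change 0.30, edgeR adjusted p = 0.185). Nr1h3, which encodes LXR alpha, was at 142.5 ± 5.38 CPM in PexRAP-AKO and 124.5 ± 8.33 CPM in Control (log2 fold change 0.20, edgeR adjusted p = 0.180) without overlap. Mlx, the partner of ChREBP, was at 0.53 and Ppara, a fatty acid sensor, at 0.54 on the log2 scale (edgeR adjusted p = 0.111 and 0.245). The 2 lower at an unadjusted p under 0.05 were Rxra (-0.22) and Ppard (-0.25), nuclear receptors, with edgeR adjusted p = 0.271 and 0.309. Mlxipl, which encodes ChREBP, had a log2 fold change of -0.26 (edgeR adjusted p = 0.409), and 4 of 5 PexRAP-AKO libraries were below all Control libraries. Rxra, Ppard and Mlxipl were chosen for naming after their values were seen.

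Peroxisomes shorten very long polyunsaturated chains in the closing step of docosahexaenoic acid synthesis. Of 13 genes of that chain shortening and of acyl import, 0 passed over all genes. At an unadjusted p under 0.05, 7 were higher and 0 lower, against 9.01% and 6.44% of all genes. The median log2 fold change of the 13 was 0.17. Ehhadh, the bifunctional enzyme, was at 237.2 ± 66.6 CPM in PexRAP-AKO and 138.3 ± 37.0 CPM in Control (SD, n = 5 each, log2 fold change 0.78, edgeR adjusted p = 0.175). Acaa1b, a thiolase, had a log2 fold change of 0.69 (edgeR adjusted p = 0.112), but it has a near-identical copy, Acaa1a, and its level is uncertain. Hsd17b4 (0.22) and Scp2 (0.20), enzymes of the same pathway, had edgeR adjusted p = 0.257 and 0.219.

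Of 14 genes that use or release polyunsaturated chains, 13 were tested. At an unadjusted p under 0.05, 2 were higher and 1 lower, against 9.01% and 6.44% of all genes. After adjustment over all genes 1 was higher, as 0.0939% of all genes were. This was Lpcat3, which places such chains in phospholipids, with 112.8, 159.4, 169.4, 165 and 141.4 CPM in PexRAP-AKO replicates 1, 2, 3, 5 and 6, against 79.4, 92.8, 76.9, 70.8 and 73.3 CPM in Control replicates 2, 3, 5, 7 and 8. All PexRAP-AKO libraries were above all Control libraries (log2 fold change 0.93, SE 0.11, edgeR adjusted p = 0.00892). Pnpla8 and Acsl4, a phospholipase and an arachidonate-preferring acyl-CoA synthetase, were at 0.17 and 0.15, and Ptgs1, a cyclooxygenase, was at -0.30 (edgeR adjusted p = 0.237, 0.416 and 0.294). The median of this list was -0.11.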

How the data were processed

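Reads were counted per gene by the authors, and the deposited table holds raw counts, not normalized. Per the submitters' processing notes, STAR 2.0.4b, Subread with featureCounts, and edgeR were used. Their roles, the build, the annotation and the strand setting were not given in the sources used here. Of 40501 identifiers in 40724 rows, 117 occurred more than once, always with equal counts, and were used once. Genes were filtered with filterByExpr (minimum count 10, minimum total 15), scaled by TMM, and tested in edgeR 4.0.16 (R 4.3.3) by the quasi-likelihood F test, 5 PexRAP-AKO against 5 Control, no covariate, with Benjamini-Hochberg adjustment over 14913 genes and a threshold of 0.05. The standard error is |log2 fold change|/√F. Levels per kilobase used the union of exons in GENCODE M21, which holds 99.97% of the tested identifiers. Log2 CPM used a prior count of 2. Ratios within a library used a pseudocount of 0.5 counts and exact two-sided permutation tests (scipy 1.17.1). Scores are means of log2 CPM over tested markers.

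On counts simulated for this comparison (14736 genes), recovery was 45.5% at 1.5-fold, 73.4% at 2-fold and 98.5% at 4-fold, with 10 false calls among 152. There 66, 64 and 66 tested genes were changed at these folds, and genes were drawn independently. The real fit called 15 genes, so these shares may not carry over to it. No library was a repeat of another of its own group (lowest chi-square per degree of freedom 7.73). Pairs of libraries across the groups were not compared. Alternatives were other scalings, no filter, DESeq2 1.42.0, limma 3.58.1 voom with and without sample weights, marker scores as covariates, the replicate block, a threshold of 0.1, and libraries left out. The genes, lists, motifs and ratios were chosen with earlier results of these data known. Named genes are the 10, Dhrs7b, list members past the threshold and up to 4 per list by p, and the 3 closest profiles for each of 4 genes; others are said to be chosen later. The labels do not say whether libraries come from separate litters, or even from separate animals, so p-values measure the spread between these samples.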

Additional observations from a re-analysis of the deposited data

Results flagged for a closer look

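Among 30 groups of 5 values examined (10 genes, Dhrs7b and 4 ratios in each group of mice), 1 had a library far from the other four, where chance gives about 1.5. Elovl7 in Control replicate 7 stood at 0.68 in log2 CPM, while the other Control libraries were at -0.25 to -0.013. That library held 18 Elovl7 counts.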

How the results depend on the processing

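The number of the 10 genes past the threshold, 0 in the reported fit, was 1 at an adjusted p under 0.1 (Tecr), 1 with sample quality weights (Tecr, adjusted p = 0.0342), 5 with DESeq2, and 0 to 2 with 1 library left out; the cause was not tested. DESeq2 gave no adjusted p for 2 of them, Elovl4 and Elovl7. The count over all genes, 15, was 26 with no low-count filter, 98 at an adjusted p under 0.1, 3 with the brown score, 6 with the skeletal muscle score, 5 without PexRAP-AKO replicate 6 and Control replicate 8, 107 with sample quality weights, 423 with DESeq2, and 3 to 58 with 1 library left out. With the replicate block (numbers 2, 3 and 5, 6 libraries) 3 genes were called, none of the 10. Same-numbered libraries deviated together only for number 5 (correlations -0.02, -0.08 and 0.36), and the libraries were treated as unpaired. Log2 fold changes of Fads1, Fads2, Elovl1, Elovl4, Elovl5, Elovl6, Hsd17b12 and Tecr kept their sign in every alternative run, those of Tecr at 0.42 to 0.70 and those of Elovl6 at 0.33 to 1.68. Fads3 turned with the brown score (0.070). Elovl7 turned with the replicate block (-0.30), without the pair of libraries (-0.082), with sample quality weights (-0.057) and over single libraries left out (-0.05 to 0.40). The 4 ratios kept their sign and did not pass in any alternative run. With 1 library left out, the permutation p cannot fall below 0.0159, and a single ratio at that floor had an adjusted p of 0.0635. Fads3/Fads1 without PexRAP-AKO replicate 1 and Elovl1/Elovl5 without PexRAP-AKO replicate 2 were at that floor. Not passing in those runs is therefore not informative. With the replicate block the log2 differences were 0.55 for Fads2/Fads1, -0.91 for Fads3/Fads1, 1.01 for Elovl6/Elovl5 and -0.16 for Elovl1/Elovl5. There 3 pairs cannot give a p below 0.25. In simulated counts, 45.5% of 1.5-fold and 73.4% of 2-fold changes were recovered; whether this bears on the 10 genes was not tested.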
